A study of Homo sapiens with 2 samples.

Results

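Amino acids enter and leave cells, and cross the membranes of lysosomes, through carrier proteins of several solute carrier (SLC) families. The genes of 7 of these families (SLC1A, SLC3A, SLC6A, SLC7A, SLC36A, SLC38A and SLC43A) were compared between QGP1 cells sorted for high aldehyde dehydrogenase activity (ALDH high) and control QGP1 cells. Members were all genes whose symbol carries one of these family prefixes and a member number, taken from probe sets listed with a single symbol. The rule did not use the measured values, but it was chosen with earlier results of these data known. It found 56 genes with 138 probe sets, out of 19775 genes on the array. For each gene the probe set with the highest mean of both arrays is the main probe set, and 36 members had more than 1 probe set.

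QGP1 is an established human cell line from a pancreatic neuroendocrine tumour, and both groups are cells of this 1 line. ALDH-high cells were collected by fluorescence-activated sorting, a way to enrich for cells with stem-like properties. No drug or genetic change is named for either group, and the sources used here do not say whether the control cells were sorted too. Each group was measured on 1 Affymetrix expression array, so no difference below has a replicate check or a p-value.

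Values are log2 RMA levels of 54613 probe sets, with an array median of 5.68 on both arrays, and the median difference over all genes was -0.01. The only spread that can be set beside a difference is that between probe sets of the same gene, a pooled SD of 0.23 over 10523 genes and of 0.20 over the transporters. It does not cover the spread between cultures or sorts. All 6 measured neuroendocrine markers stood above the array median, as did the 4 epithelial ones. Of the markers of other cell types, 2 of 5 fibroblast, 1 of 4 endothelial and 1 of 3 leukocyte genes reached it on at least 1 array. The median difference of these 5 marker lists lay between -0.18 and 0.00, and the largest single one was -1.02, for the dim leukocyte gene CD14. Their part in the differences below was not tested. In bulk RNA, a change in how many cells express a gene and a change in RNA per cell cannot be told apart.

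Several of these carriers work together. SLC1A5 (ASCT2) brings glutamine into the cell in exchange for other neutral amino acids. SLC7A5 (LAT1) takes up leucine and other large neutral amino acids in exchange for glutamine, and reaches the cell surface as a heteromer with the heavy chain SLC3A2 (CD98hc). SLC7A11 (xCT), paired with the same heavy chain, imports cystine in exchange for glutamate and so feeds glutathione synthesis. Several of these genes are known targets of ATF4, the transcription factor of the amino acid response, which acts at C/EBP-ATF response elements.

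Most of the transporters differed little between ALDH-high and control cells, and the members with larger differences included lower and higher ones. Over 2-fold lower were 2 of 56 members, SLC6A14 and SLC43A1, or 3.57%, against 1.23% of all genes. None was over 2-fold higher, against 0.465% of all genes. At a threshold of 1.5-fold, 7 members were lower (12.5%, against 4.21% of all genes), namely SLC6A14, SLC43A1, SLC7A5, SLC1A5, SLC3A2, SLC6A8 and SLC1A4. At that threshold 3 were higher (5.36%, against 2.61%), namely SLC38A11, SLC36A1 and SLC43A2. With the mean over all probe sets of a gene, 1 member was over 1.5-fold higher (SLC38A11) and 6 were lower, and without probe sets open to shared targets 4 of 45 were lower. The median difference over all 56 members was -0.08, with 34 below 0, 18 above and 4 equal on both arrays, whereas 50.3% of all genes lay below 0. The families as a whole were therefore close to level, and the larger differences sat in a few members.

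**Figure D1:**
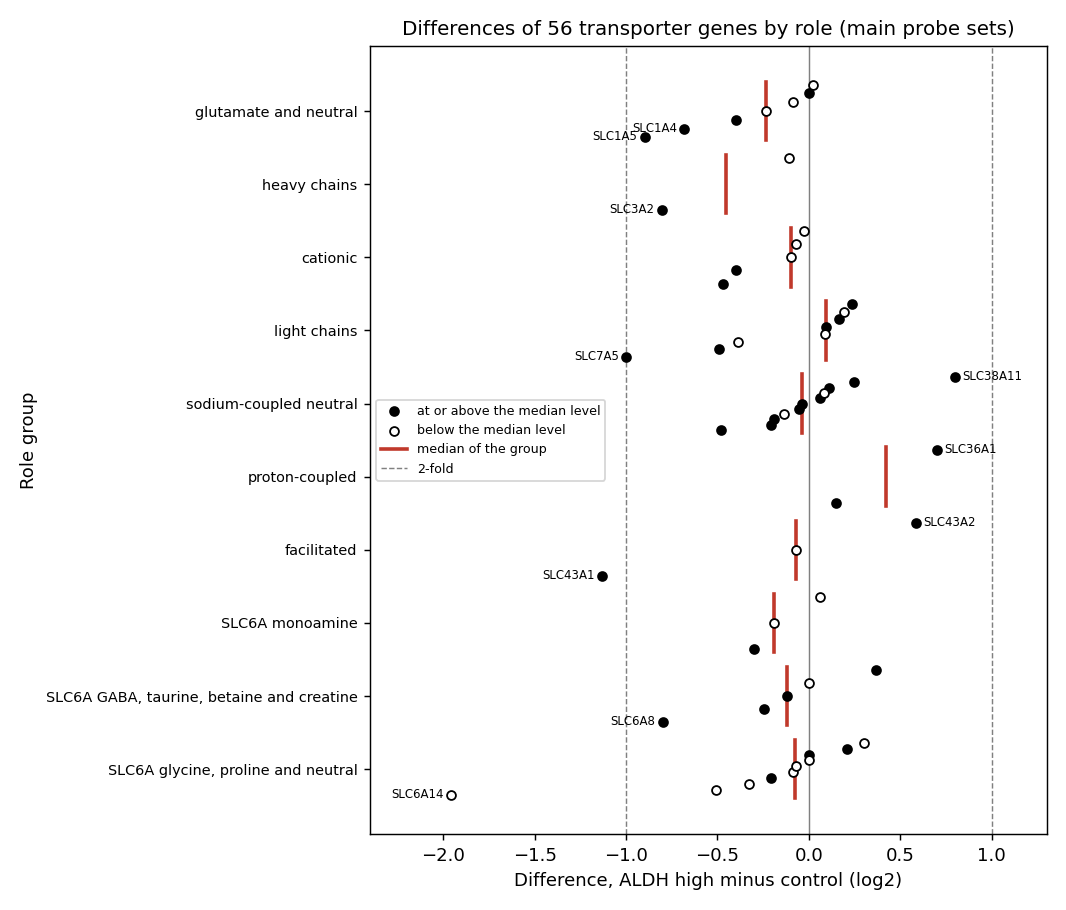
Difference between the arrays (log2 RMA level, ALDH high minus control) of the main probe set of each of the 56 transporter genes, by role group. Filled points reached the array median of 5.68 on at least 1 array, open points did not, red bars are group medians, and members over 1.5-fold are named: 7 lie to the left of 0 and 3 to the right, and only SLC6A14 and SLC43A1 pass the 2-fold line.

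Of the 56 members, 33 reached the array median on at least 1 array, 2 of them on 1 array only. The other 23 were below it on both. The table holds no detection calls, so a dim level cannot be told from absence. SLC6A14 was the only member over 1.5-fold different among these 23.

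The SLC1A family holds the sodium-coupled glutamate carriers and the neutral exchangers ASCT1 and ASCT2. Both exchangers were lower in ALDH-high cells. SLC1A5 (ASCT2) had a level of 8.70 in ALDH high and 9.59 in control, a difference of -0.90 or 1.86-fold lower, on its only probe set. SLC1A4 (ASCT1), which carries serine, alanine and threonine, stood at 9.42 against 10.10, 1.60-fold lower. All 5 SLC1A4 probe sets lay below 0. The 3 with the highest levels differed by -0.63 to -0.73, and the others, nearer the array median, by -0.29 and -0.14. The probe set at -0.14 is the only one of SLC1A4 that is not open to cross-hybridisation with other transcripts.

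The glutamate carriers of this family differed less. SLC1A1, the neuronal and epithelial carrier EAAT3, was at 7.20 against 7.60 (1.32-fold lower). Its second probe set gave -0.14. SLC1A2, the main glial carrier, was equal on both arrays at 6.38 on its main probe set, which is open to shared targets. The rest of its 6 probe sets were below the array median on both arrays and differed by -0.16 to 0.22. The brightest that is not open to shared targets was at 3.37 against 3.53. SLC1A3 (-0.23), SLC1A7 (-0.08) and SLC1A6 (0.02) were below the array median on both arrays. The median of the 7 measured SLC1A genes was -0.23, and none passed 2-fold.

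The heavy chain of CD98 and its most lowered light chain differed by similar amounts. SLC3A2 stood at 10.85 in ALDH high and 11.65 in control, a difference of -0.80 or 1.75-fold lower. SLC7A5 (LAT1) stood at 11.36 against 12.36, a difference of -0.999, just short of the 2-fold threshold. Their differences were 0.19 apart, less than the spread of 0.23 between probe sets of a gene. Each rests on a single probe set whose ID marks possible shared targets, so neither has a second reading on this array.

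The other light chains that pair with SLC3A2 did not move as one with it. SLC7A11 (xCT) had levels of 11.15 and 11.64 and was 1.41-fold lower, with all 3 probe sets below 0 (-0.49, -0.48 and -0.22). SLC7A8 (LAT2), which like LAT1 carries neutral amino acids, was nearly level at 10.20 against 10.10. SLC7A6 and SLC7A7, the y+L exchangers that export basic amino acids, stood at 9.33 against 9.17 and at 6.10 against 5.87. All 3 SLC7A6 probe sets lay above 0, from 0.17 to 0.31. The dim SLC7A10, a carrier of small neutral amino acids, differed by -0.39. Measured against the heavy chain, the difference of SLC7A8 was 0.90 larger, that of SLC7A6 0.97 larger and that of SLC7A7 1.04 larger, each beyond the spread between probe sets.

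SLC3A1, the heavy chain of the kidney and gut cystine system, and its partner SLC7A9 were below the array median on both arrays, with differences of -0.11 and 0.19. SLC7A13, also dim, differed by 0.09. Over the 8 measured light chains the median was 0.09, within the spread between probe sets, and the mean was -0.14. By count the lower light chains, 3 of 8, were a minority of their group, but the dim SLC7A9 and SLC7A13 were among those above 0.

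**Figure D2:**
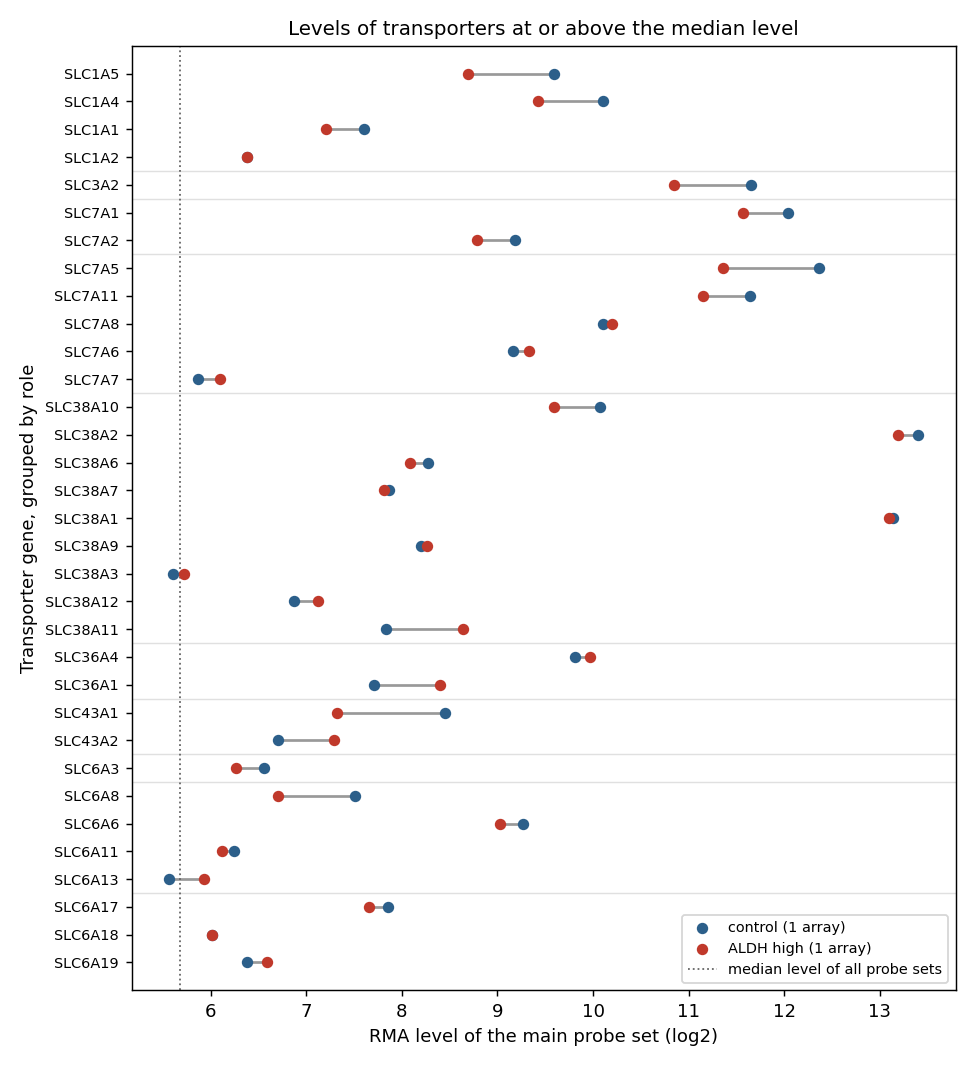
Levels (log2 RMA) on the ALDH-high array (red) and the control array (blue) of the 33 transporters that reached the array median (dotted line) on at least 1 array, grouped by role. The longest leftward shifts are those of SLC43A1, SLC7A5, SLC1A5, SLC3A2 and SLC6A8, and the longest rightward shifts those of SLC38A11 and SLC36A1; levels of different genes are not comparable, because probe sets bind unequally.

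The cationic carriers bring arginine, lysine and ornithine into the cell, and none of the 5 measured reached 1.5-fold. SLC7A1 (CAT1), the widespread carrier of this group, was at 11.57 against 12.03, 1.38-fold lower. Its 3 probe sets above the array median agreed at -0.44 to -0.52, and the 2 dim ones differed by -0.13 and 0.00. SLC7A2 (CAT2) was at 8.79 against 9.18, 1.32-fold lower. SLC7A3, SLC7A4 and the orphan member SLC7A14 were below the array median and within -0.10 to -0.03. The main probe sets of all 5 members of the group lay below 0, with a median of -0.10. The second probe sets of SLC7A4 and SLC7A14 lay above 0, at 0.17 and 0.08.

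The SLC43A family, facilitated carriers of large neutral amino acids, held differences in both directions. SLC43A1 (LAT3) stood at 7.32 in ALDH high and 8.45 in control, 2.19-fold lower on its single probe set, a larger drop than in 99.1% of all genes. With a pseudocount of 32 on the linear scale its difference was -0.99, no longer over 2-fold. SLC43A2 (LAT4), which shares its substrates, stood at 7.30 against 6.71, 1.503-fold higher, and its second probe set differed by 0.39. As the mean of both the SLC43A2 difference was 0.49, and with the pseudocount 0.47, each under 1.5-fold. SLC43A3, now known for purine transport, was dim and differed by -0.07. The group's median of -0.07 comes from SLC43A3 and describes neither of the others.

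The system A and N carriers (SLC38A) take up glutamine, alanine and other small neutral amino acids with sodium. SLC38A2 (SNAT2), which is known to be induced when amino acids run short, was at 13.19 against 13.40. Its 3 probe sets gave -0.21, -0.24 and -0.26, so they agreed on a difference close to the spread between probe sets. SLC38A1 (SNAT1) was nearly level at 13.10 against 13.13, with its 4 probe sets from -0.31 to 0.01.

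A single member of the family was over 1.5-fold higher. SLC38A11, a little-studied member, stood at 8.64 in ALDH high and 7.84 in control, 1.74-fold higher on its single probe set, and only 0.996% of all genes had a larger positive difference. SLC38A10, named after its values were seen, was lower by 0.48 on its main probe set (9.59 against 10.07). Its other 6 probe sets ranged from -0.29 to 0.53, and the mean over all 7 was -0.10. SLC38A9, the lysosomal arginine sensor upstream of mTORC1, differed by 0.06.

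The remaining members of the family were close to 0. SLC38A6 and SLC38A7 differed by -0.19 and -0.05, and SLC38A12 and SLC38A3 by 0.25 and 0.11. The dim SLC38A4 and SLC38A5 differed by -0.13 and 0.08. Of the 11 measured members, 6 lay below 0 and 5 above, with a median of -0.04.

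The proton-coupled carriers release small amino acids from lysosomes or take them up at acidic surfaces, and 1 of the 2 measured was over 1.5-fold higher in ALDH-high cells. SLC36A1 (PAT1) stood at 8.40 against 7.70, 1.62-fold higher. Its second probe set was below the array median on both arrays and differed by 0.02, so that their mean was 0.36, under 1.5-fold. SLC36A4 (PAT4) was at 9.96 against 9.81, and its probe sets differed by 0.15 and 0.21, within the spread between probe sets.

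The SLC6A family carries neurotransmitters, osmolytes and amino acids with sodium and chloride. SLC6A14, which takes up all neutral and basic amino acids and is often high in epithelial tumours, stood at 2.79 in ALDH high and 4.75 in control. This is 3.88-fold lower and the largest difference of any member, on a single probe set. Both levels lay below the array median, at percentiles 6.69 and 33.5 of their arrays, and with a pseudocount of 32 the difference was -0.60. Among the 6947 genes below the array median on both arrays, no other had so large a drop.

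SLC6A8, the creatine carrier, was 1.74-fold lower on its main probe set (6.71 against 7.51). Its other probe sets differed by -1.08 and -0.46, so all 3 pointed the same way. The probe set at -1.08 (6.22 against 7.30) is the one not open to shared targets, and SLC6A8 has near-identical pseudogene copies. SLC6A6, the taurine carrier, was at 9.02 against 9.27, and 4 of its 5 probe sets lay below 0. The GABA and betaine carriers SLC6A11 (-0.12), SLC6A12 (0.00) and SLC6A13 (0.37) were near or below the array median.

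Apart from SLC6A14, no glycine, proline or neutral amino acid carrier of this family reached 1.5-fold. SLC6A9 (GlyT1), the widespread glycine carrier, was dim at 3.62 against 3.69. SLC6A20, a proline carrier, differed by -0.51 on its main probe set (4.38 against 4.89) and by -0.05 on the other. SLC6A5, the glycine carrier of inhibitory neurons, differed by -0.33. Both genes were below the array median. SLC6A17, a vesicular carrier of neutral amino acids, was at 7.65 against 7.86. SLC6A7 and SLC6A16 differed by -0.09 and 0.30 at dim levels, and SLC6A19 by 0.21. The other SLC6A19 probe sets differed by 0.03 and -0.25. The main probe sets of SLC6A15 and SLC6A18 were equal on both arrays, and the other probe sets of SLC6A15 differed by -0.17 to 0.15. The 3 monoamine carriers for noradrenaline (SLC6A2, 0.06), dopamine (SLC6A3, -0.30) and serotonin (SLC6A4, -0.19) lay near or below the array median, with probe sets of SLC6A2 and SLC6A4 on both sides of 0.

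**Figure D3:**
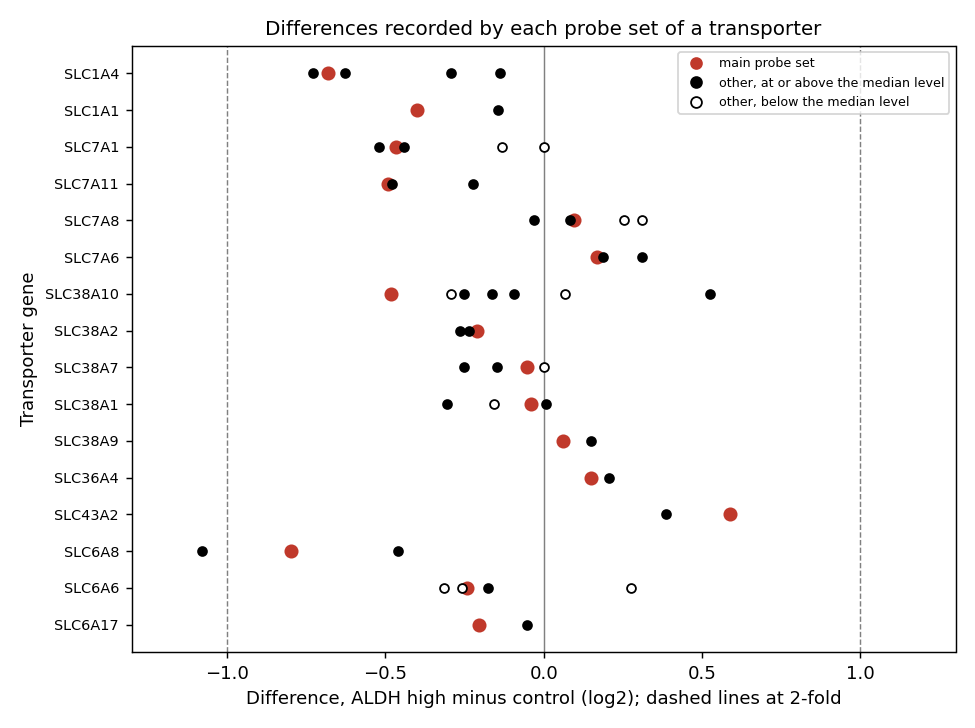
Difference (log2 RMA level, ALDH high minus control) on every probe set of the 16 transporters with more than 1 probe set at or above the array median; red is the main probe set, black the others at or above the median, open those below it, dashed lines 2-fold. The probe sets of SLC1A4, SLC7A11 and SLC6A8 all lie left of 0 and those of SLC7A6 and SLC43A2 right of it, while those of SLC38A10 lie on both sides.

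Among members with several probe sets, SLC1A4, SLC7A11, SLC6A8, SLC38A2, SLC43A2 and SLC7A6 were examples in which every probe set had the same direction. The members with one of the larger differences and only 1 probe set were SLC6A14, SLC43A1, SLC7A5, SLC1A5, SLC3A2 and SLC38A11. Of the 56 main probe sets, 14 had a difference of a size found again, to 6 decimals, in 20 or more of the array's probe sets, including the 4 equal ones. Among all compared probe sets the share with such a difference was 29.5%. These 14 reached at most 0.37, in SLC6A13, and held no member over 1.5-fold.

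The promoters of the transporters were searched because several of the lower genes belong to the ATF4-regulated set. RefSeq start sites of assembly GRCh38.p14 were found for 42 of the 56 members, in 64 windows from 250 bases before to 50 bases after a start. SLC7A11 had no window, so its promoter was not searched. The C/EBP-ATF response element core TGATGNAA (either strand) occurred in windows of 6 of the 42 genes. Each match is shown with its surroundings, 30 bases in all, in the direction of the gene, with the matching bases in capitals.

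SLC1A5: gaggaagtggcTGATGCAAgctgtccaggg
SLC1A4: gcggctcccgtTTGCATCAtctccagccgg
SLC3A2: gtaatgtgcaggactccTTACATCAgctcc
SLC7A1: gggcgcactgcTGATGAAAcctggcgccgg
SLC38A1: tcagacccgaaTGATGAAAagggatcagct
SLC1A3: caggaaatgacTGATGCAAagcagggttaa

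The SLC1A5 site lies at chr19:46784893-46784922 on the minus strand, with the match at -97 to -90 from the start. That start is the most downstream of 3 listed for the gene, and the starts used for SLC1A4, SLC3A2 and SLC38A1 also have others upstream of them. The SLC1A4 site (chr2:64989381-64989410, plus strand) holds the motif on the opposite strand, across the start, from -7 to 1. The SLC3A2 site (chr11:62881719-62881748, plus strand) lies after the start, at 38 to 45, also on the opposite strand. Those of SLC7A1 (chr13:29595663-29595692, minus strand, 8 to 15), SLC38A1 (chr12:46266502-46266531, minus strand, -4 to 4) and SLC1A3 (chr5:36596357-36596386, plus strand, -220 to -213) carry the motif in the direction of the gene.

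Of these 6 genes, SLC1A5, SLC3A2 and SLC1A4 were over 1.5-fold lower, SLC7A1 was 1.38-fold lower, SLC1A3 differed by -0.23 and SLC38A1 by -0.04. All 7 members over 1.5-fold lower had a window, and those of SLC7A5, SLC43A1, SLC6A8 and SLC6A14 held no match. The motif stood in 9.38% of the member windows (6 of 64) and 3.62% of all 35116 windows, and in 14.3% of the member genes against 4.46% of all genes with a window. These shares are descriptions, since windows of a gene are not independent and no test was made. Members also had more windows per gene (64 for 42 genes) than all genes (35116 for 27305), which can raise their share by gene.

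The core of the antioxidant response element, TGACNNNGC on either strand, occurred in 10.9% of the member windows and 13.3% of all windows, and in 16.7% of the member genes against 16.1% of all genes with a window. Of the 7 members over 1.5-fold lower, 3 held it (SLC1A5, SLC3A2 and SLC7A5). As many held the C/EBP-ATF core, which is rarer over all genes with a window (4.46% against 16.1%). The antioxidant core matches in the CD98 pair are shown because SLC3A2 and SLC7A5 differed together.

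SLC3A2: acgagggtgggTGACTCAGCgtcctccttc
SLC7A5: ggcggggttccTGACGCAGCtgcgggcggc

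They lie at chr11:62881651-62881680 (plus strand, -37 to -29) and chr16:87869491-87869520 (minus strand, -2 to 7). SLC7A1, SLC1A3, SLC7A6 and SLC7A7 also had matches to this core. The full cAMP response element TGACGTCA, which reads the same on both strands, was in none of the 64 member windows and in 1.85% of all windows. No matches of different motifs overlapped. A match to a motif does not show that a factor binds there.

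Genes of the amino acid response, set beside the carriers, differed more than they did. Of 28 such genes (transcription factors, serine and asparagine synthesis enzymes, stress regulators and tRNA synthetases), all lay below 0 and 16 were over 2-fold lower, with a median of -1.12. The shares were 100% below 0 and 57.1% over 2-fold lower, against 50.3% and 1.23% of all genes. ATF4 itself was at 11.82 against 12.78, a difference of -0.95, and ASNS, the asparagine synthetase, was at 11.97 against 13.07, a difference of -1.10. The list was chosen with earlier results of these arrays known, so its direction is no independent evidence. The differences of SLC7A5 (-0.999), SLC1A5 (-0.90) and SLC3A2 (-0.80) were near that of ATF4 in size. So were those of SLC43A1 (-1.13) and SLC6A8 (-0.80). SLC7A11 (-0.49), SLC7A1 (-0.47), SLC38A2 (-0.21) and SLC38A1 (-0.04) differed less. Whether ATF4 has a part in any of these differences was not tested.

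Carriers outside the 7 families and the machinery that senses amino acids had medians near 0, with larger differences in a few genes. Of 19 other carriers (mitochondrial, vesicular and lysosomal carriers and peptide transporters) none was over 2-fold different, and the median was 0.07. The largest difference among them was that of the peptide transporter SLC15A2, at 6.66 against 6.07. Of all genes, 1.23% were over 2-fold lower and 0.465% over 2-fold higher. Of 28 genes of the mTORC1 amino acid sensing pathway 1 was over 2-fold lower, the Rag GTPase RRAGD (8.77 against 9.90). The share was 3.57%, against 1.23% of all genes, and the median was -0.03. At 1.5-fold FLCN (-0.72) was lower as well and none was higher, while CASTOR2 (0.58) and CASTOR1 (-0.50) fell short of it. At that threshold 7.14% of the sensing genes were lower, against 4.21% of all genes, and 2.61% of all genes were higher. SESN2 (-1.89) and EIF2AK4 (-0.46) were listed with the amino acid response genes, SESN1 (0.06) and SESN3 (0.25) with the sensing genes. Without probe sets open to shared targets, 19 of the 28 sensing genes were left, none was over 2-fold lower and the median was -0.13.

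**Figure D4:**
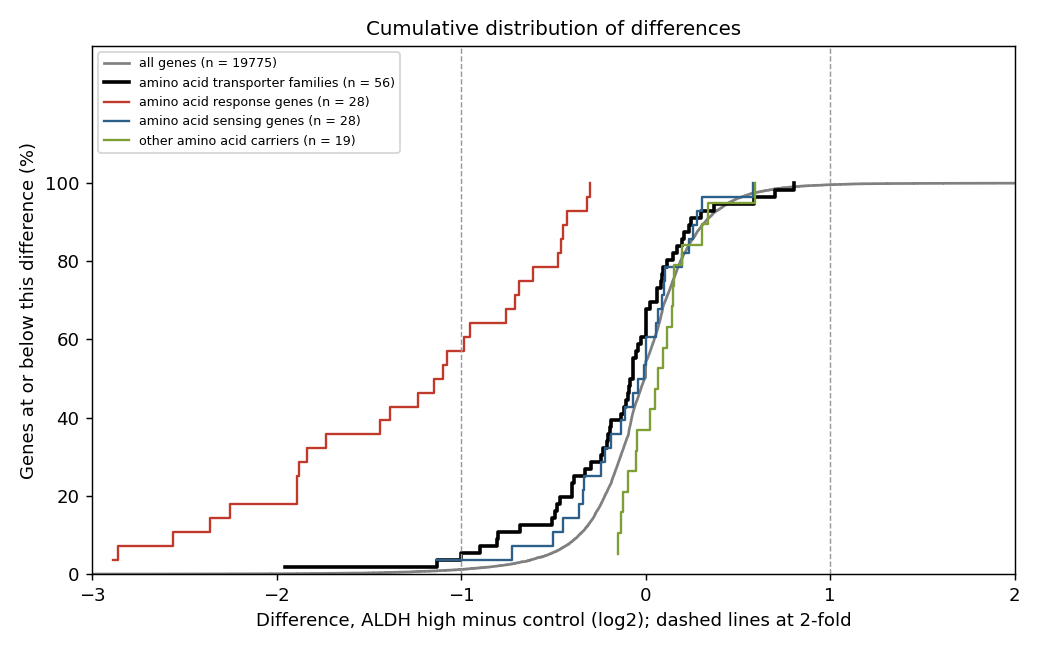
Cumulative share of genes (%) at or below each difference (log2 RMA level, ALDH high minus control) for the 56 transporters, all 19775 genes and 3 related lists; dashed lines mark 2-fold. The amino acid response genes lie wholly below 0, with a median of -1.12, whereas the transporters have a median of -0.08 and leave the curve of all genes mainly on the lower side.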

How the data were processed

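Total RNA of 2 samples was labelled with biotin with a 3' in vitro transcription kit, per the labels' protocols. The authors deposited log2 levels of probe sets; the submitters' processing notes name RMA as the method. It corrects background, quantile-normalises arrays together and summarises probes by median polish, which hides a shift common to all genes. The sources used here give neither its version nor which arrays were normalised as a set, and depth does not apply: the number of arrays limits the precision.

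Gene symbols came from GEO's platform annotation, and probe sets with several symbols named no gene. The difference is ALDH high minus control, and 2-fold, the threshold named by the submitters, was applied to all genes. Probe sets ending in _s_at or _x_at were taken as open to shared targets. No test was made with 1 array per group. The 2-fold step alone was tried on simulated data, with noise set by the spread between probe sets. That trial does not cover the spread between cultures or sorts, nor the 1.5-fold threshold. Promoter sequences and starts are RefSeq's, of GRCh38.p14; no build is named for the array.

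Named by rule were members over 2-fold, those over 1.5-fold that reached the array median, the largest difference in each role group and 13 fixed carriers, 17 genes in all; other members are given to account for their group. The members, lists and motifs were chosen with earlier results of these data known. SLC38A12 was added to its role group after the annotation was read. Of the carriers listed by role, 5 were not analysed here, and 2 sensing genes likewise. Python 3.11.15 with pandas and matplotlib was used.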

Additional observations from a re-analysis of the deposited data

How the results depend on the processing

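The count of members over 2-fold lower (2) was 0 with a pseudocount of 32, which pulls low levels together, and 1 over genes that reached the array median, where SLC6A14 drops out. At a threshold of 1.5-fold the counts were 7 lower and 3 higher. In a check added after seeing the data, the lower count at 1.5-fold ran from 4 (without shared-target probe sets, which leaves no probe set of SLC7A5 or SLC3A2) to 7, and the higher count from 1 (mean or median over probe sets) to 3. The count over 2-fold lower was 2 with the mean or median over a gene's probe sets and after centring on the median of all genes. Without shared-target probe sets that count was 3. No setting at 2-fold gave a member that was higher. The median over the members kept its sign, from -0.12 to -0.04. Of 96 values recomputed for the named genes, all kept their sign and 91 moved by less than 0.23. The other 5 were SLC6A14 with a pseudocount (-0.60), SLC36A1 averaged over its probe sets (0.36, as mean and as median), and, without shared-target probe sets, SLC1A4 (-0.14) and SLC6A8 (-1.08). Many of the 96 could not have changed sign, so the tally is weak. A pseudocount cannot reverse a sign, and centring shifts every gene by the same small amount. The limit to genes that reached the array median leaves a value as it is. For a gene with 1 probe set the mean and median are the main value. No paired analysis was possible because each group has 1 array. Levels near the floor of the array, as for SLC6A14, limit what a fold can show.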

Other observations

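A further 3 probe sets carry SLC6A8 together with its pseudogenes SLC6A10P or SLC6A10PB and were left out of the comparison. Their differences were -0.55 (6.57 against 7.12), 0.00 and 0.10, the last 2 below the array median on both arrays.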
